A study of Mus musculus with 10 samples.

Results

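The polyamine genes described here are 9 genes that make, break down or control polyamines: Odc1, Azin1, Oaz1, Oaz2, Amd1, Srm, Sms, Sat1 and Smox. The list was drawn up for genes with known translational regulation, which was not checked here for each of them. They were taken by symbol, and all 9 were found among the 21934 symbols of each of the 2 deposited tables. The tables come from ribosome profiling of mouse cells, which sequences the mRNA fragments shielded by ribosomes (footprints) beside matched polyadenylated RNA (input). The first table is labelled as a monoclonal line of immortalized bone marrow-derived macrophages (iBMDM). It was either wild type (WT) or infected with a lentivirus carrying a guide RNA against Wdr4 and kept under puromycin. The guide RNAs were sgWdr4-1 (guide 1) and sgWdr4-2 (guide 2). The other table is labelled as tumour-associated macrophages (TAM), sorted for the surface protein F4/80 from liver tumours seeded with Hepa1-6 hepatoma cells. The mice were Wdr4 ff (ff, floxed Wdr4) or Wdr4 cKO (cKO, Wdr4 deleted in myeloid cells). The sources used here do not give the Cre driver, the age of the mice or how many were pooled for a library. Each of these 5 conditions had 1 input and 1 footprint library, so no value below has a replicate error.

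Polyamines (putrescine, spermidine and spermine) are small cations that bind nucleic acids and are needed for growth. Ornithine decarboxylase makes putrescine, and the spermidine and spermine synthases then add aminopropyl groups that come from decarboxylated S-adenosylmethionine. The level is held by feedback at translation. Polyamines promote a ribosomal frameshift on antizyme mRNA, and antizyme sends ornithine decarboxylase to the proteasome. They also stall ribosomes on a short upstream open reading frame of the Amd1 mRNA. Wdr4, the targeted gene, encodes the partner of the tRNA 7-methylguanosine methyltransferase Mettl1.

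The upstream open reading frame of Amd1 is shown because it is a translational control element and Amd1 had the largest footprint difference of the 8 tested genes under guide 2 and in cKO. It was found by searching the 50 bases after each annotated RefSeq start (GRCm38.p6) for an ATG followed in frame by at least 1 codon and a stop. Of the 9 genes, 7 had such a window; Azin1 and Srm were not matched. Amd1 alone of those 7 held such a frame, beginning at base 14 of the transcript and with 6 codons before the stop. A frame that began or ended beyond those 50 bases would be missed, so the others are not shown to lack one. The stretch of 27 bases printed here, the frame with 3 bases on each side, lies at chr10:40302152-40302178 on the minus strand. Of all 32851 windows, 9.87% held one. Capitals mark the frame from its ATG to its stop.
Amd1: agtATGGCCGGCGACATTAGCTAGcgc

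Values are TPM, which divides reads by gene length and by the library's sum, so input levels of different genes can be compared, but read depth is unknown. Whether the length was that of the coding part or of the whole mRNA is not given. Footprint levels and their ratio to input therefore compare less surely between genes. Translation efficiency was taken as the log2 ratio of footprints to input after 1 TPM was added to each, so that 0 means equal TPM in both. Wdr4 input was 70.1% of WT under guide 1, 99.8% under guide 2 and 52.6% of ff in cKO, while its footprints were 1.82-fold, 2.01-fold and 2.08-fold. Guide 1, guide 2 and cKO therefore mean the libraries with those labels throughout. Of 20 macrophage markers, 17 stayed below 1 TPM in each of the input libraries and 1 (Cd14) was at 5 TPM or more throughout. Adgre1, which encodes F4/80, was listed at 0 in all 10 libraries, and the summed macrophage list lay between 17.6 and 24.3 TPM in input. Ptprc, a leukocyte marker, was at most 0.071 TPM in input. Of 12 fibroblast and stellate markers, 7 were at 5 TPM or more in every input and the other 5 stayed below 1 TPM in each. Their summed input was 4432 to 6325 TPM, and Acta2 alone lay between 2397 and 3785 TPM. Of 12 hepatocyte and hepatoma markers, 11 were listed. Among these, 9 stayed below 1 TPM in every input and 2 (Apoa1 and Apoa2) were at 5 TPM or more throughout. The names iBMDM and TAM are therefore also used as labels only. The guide 1 footprint library stood apart, with 0.781% of its TPM on mitochondrially encoded genes against 9.94% to 14.6% in the other 4, and each result is given for guide 2 as well. The part of these marker levels and of that library in the results below was not tested.

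The 9 mRNAs fell in a similar order of abundance in all 5 input libraries, but their footprints did not follow that order. Oaz1 was the most abundant in input, and Odc1 came next. In footprints Oaz1 was still highest and Sat1 next, while Odc1 lay among the 4 lowest. Smox was the least abundant in every input, under 5 TPM. Genes entered the genome-wide comparisons when mean input and mean footprints of a table were each at least 5 TPM, which 8 of the 9 genes did in both tables and Smox did in neither.

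**Figure D1:**
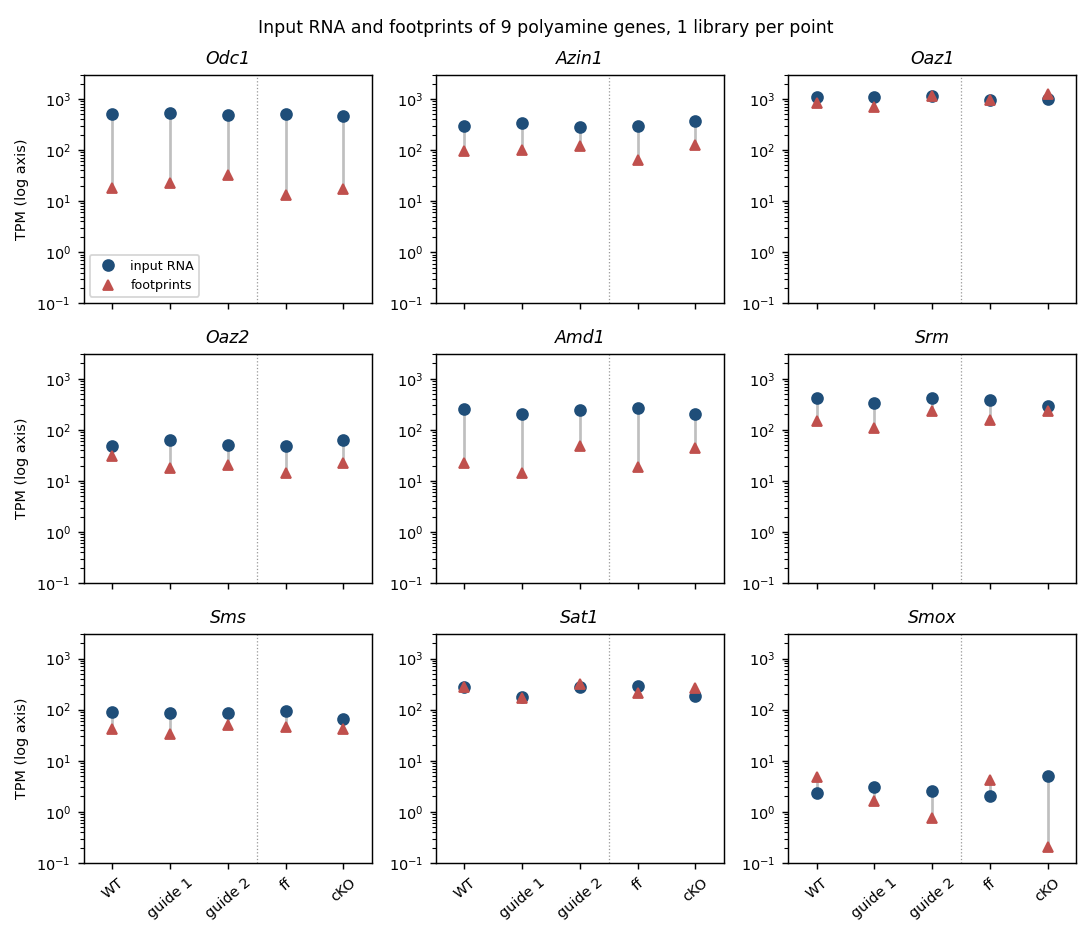
Input RNA (circles) and footprints (triangles) of each gene in TPM on a log axis, 1 library per point, with the iBMDM conditions left and the TAM conditions right of the dotted line. The gap between the symbols is widest for Odc1, at 507.5 TPM of input and 17.8 TPM of footprints in WT, and nearly closed for Oaz1 and Sat1.

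Odc1, which encodes ornithine decarboxylase, had abundant mRNA and few footprints in every condition. In input it reached 507.5 TPM in WT, 533.1 TPM under guide 1, 489.9 TPM under guide 2, 510.2 TPM in ff and 468.6 TPM in cKO. Its footprints were 17.8 TPM in WT, 22.2 TPM under guide 1, 33.1 TPM under guide 2, 13.3 TPM in ff and 16.9 TPM in cKO. The mRNA was nearly level across the libraries, and footprints were highest under guide 2 and lowest in ff. Translation efficiency was -4.76 in WT, -4.53 under guide 1, -3.85 under guide 2, -5.16 in ff and -4.71 in cKO, where the median of all tested genes lay between -0.85 and -0.43. Of 7536 tested genes in the iBMDM table, 18 had a lower translation efficiency than Odc1 in WT, 20 under guide 1 and 33 under guide 2. Of 7101 genes tested in TAM, 10 did so in ff and 22 in cKO.

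Amd1 encodes S-adenosylmethionine decarboxylase, which supplies the aminopropyl groups, and was the next lowest of the 8 tested genes in each condition. Its mRNA stood at 256.7 TPM in WT, 208.2 TPM under guide 1, 246.9 TPM under guide 2, 263.0 TPM in ff and 202.2 TPM in cKO. Its footprints were 22.3 TPM in WT, 14.5 TPM under guide 1, 48.2 TPM under guide 2, 19.0 TPM in ff and 43.4 TPM in cKO. Guide 2 and cKO thus lay above both control libraries, and guide 1 lay below WT. Translation efficiency was -3.47 in WT and -3.72 in ff, where 57 of 7536 and 38 of 7101 tested genes were lower. It was -3.75 under guide 1 (78 genes lower), -2.33 under guide 2 (441 genes lower) and -2.19 in cKO (1059 genes lower). The change was -0.29 under guide 1, 1.13 under guide 2 and 1.53 in cKO on the log2 scale, the last at the 98.9th percentile of tested genes.

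How reads that match several copies of a gene were counted is not stated in the labels. The 7 genes with a lower translation efficiency than Odc1 in all 5 conditions, named after their values were seen, were Gpx4, Rpl12, Rpl29, Rps7, Tuba1a, Tuba1b and Ubb. For 5 of these the RefSeq table lists a pseudogene under the gene's own symbol, as it does for 260 of the 7536 genes tested in the iBMDM table. In WT, 6.15% of those 260 genes lay below -3 in translation efficiency, against 1.46% of the other 7276 genes. The shares were 7.69% and 2.91% under guide 1, 6.54% and 1.57% under guide 2, 5.81% and 1.71% in ff, and 7.75% and 4.08% in cKO. The median of the genes with such a listing was below that of the others in WT (-0.63 and -0.58) and ff (-0.72 and -0.58). It was above under guide 1 (-0.31 and -0.44), guide 2 (-0.43 and -0.64) and in cKO (-0.65 and -0.86). RefSeq lists 7 pseudogenes under the stem Amd and 1 each for Oaz1, Oaz2 and Sms, and none under the symbol Odc1, although copies with other names would be missed. Amd2, a protein-coding copy of Amd1, was at 0.698 to 1.34 TPM in input and listed at 0 in all 5 footprint libraries. The part of copies in the low values of Odc1 and Amd1 was not tested, and both are uncertain as levels.

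**Figure D2:**
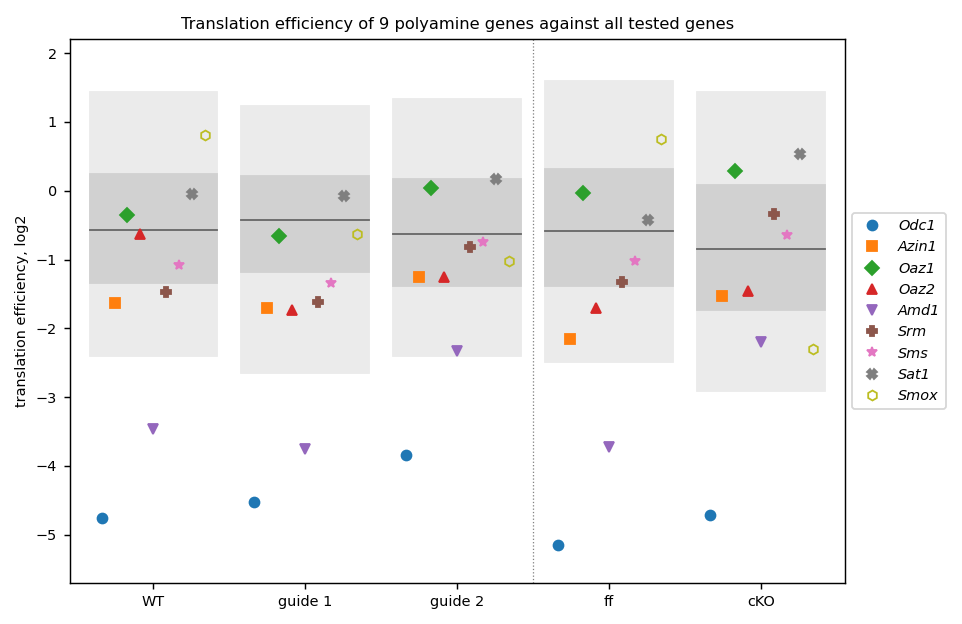
Translation efficiency (log2) of each gene in the 5 conditions, over the 5th to 95th percentile (light) and the middle 50% (dark) of all tested genes, with their median as a line. Odc1 lay below the light band in all 5 conditions and Amd1 in WT, guide 1 and ff, while Oaz1 and Sat1 lay near or above the median; Smox (open symbol) was below the 5 TPM minimum.

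Oaz1, the main antizyme, was the most abundant of the 9 mRNAs and also carried the most footprints. In input it reached 1078 TPM in WT, 1096 TPM under guide 1, 1121 TPM under guide 2, 969.7 TPM in ff and 1014 TPM in cKO. Its footprints were 841.1 TPM in WT, 694.9 TPM under guide 1, 1149 TPM under guide 2, 945.3 TPM in ff and 1240 TPM in cKO. The input differed by at most 1.16-fold between libraries and the footprints by 1.78-fold, with the lowest value under guide 1 and the highest in cKO. Translation efficiency stayed between -0.66 and 0.29. Footprints upstream and downstream of the frameshift are counted together at gene level, so these values do not measure frameshifting.

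Oaz2, a second antizyme that also requires a frameshift, was much scarcer, and its order across libraries differed from that of Oaz1. Its footprints were 31.2 TPM in WT, 18.0 TPM under guide 1, 20.6 TPM under guide 2, 14.1 TPM in ff and 22.1 TPM in cKO. Both guide lines lay below WT and cKO lay above ff, and the WT library was the highest of the 5. Its mRNA stood at 48.5 TPM in WT, 62.5 TPM under guide 1, 50.5 TPM under guide 2, 48.3 TPM in ff and 62.7 TPM in cKO. Translation efficiency differed by -1.12 for guide 1, -0.63 for guide 2 and 0.24 for cKO.

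Azin1 encodes the antizyme inhibitor, a relative of ornithine decarboxylase without its activity that binds antizyme and so frees the enzyme. In input it reached 293.0 TPM in WT, 333.6 TPM under guide 1, 286.1 TPM under guide 2, 289.9 TPM in ff and 365.6 TPM in cKO. Footprints were 94.1 TPM in WT, 101.5 TPM under guide 1, 119.7 TPM under guide 2, 64.1 TPM in ff and 126.0 TPM in cKO. The cKO library was the highest and the ff library the lowest, a 1.96-fold difference to which input contributed 1.26-fold. Under the guides the footprint differences were smaller, at 1.08-fold and 1.27-fold.

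The ratio of Oaz1 to Odc1 was far larger in footprints than in mRNA. In input, Oaz1 was 2.12-fold Odc1 in WT, 2.06-fold under guide 1, 2.29-fold under guide 2, 1.90-fold in ff and 2.16-fold in cKO. In footprints, Oaz1 was 47.2-fold Odc1 in WT, 31.3-fold under guide 1, 34.7-fold under guide 2, 71.0-fold in ff and 73.4-fold in cKO. Both guide lines were thus below WT in the footprint ratio, and cKO was close to ff. With Azin1 added to Odc1 and Oaz2 to Oaz1, the footprint ratio was 7.79 in WT, 5.76 under guide 1, 7.66 under guide 2, 12.4 in ff and 8.84 in cKO. These ratios share the uncertain footprint level of Odc1, and they compare different genes although the length used for TPM is not given. Antizyme footprints on both sides of the frameshift are counted, so the ratios do not measure the antizyme made.

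**Figure D3:**
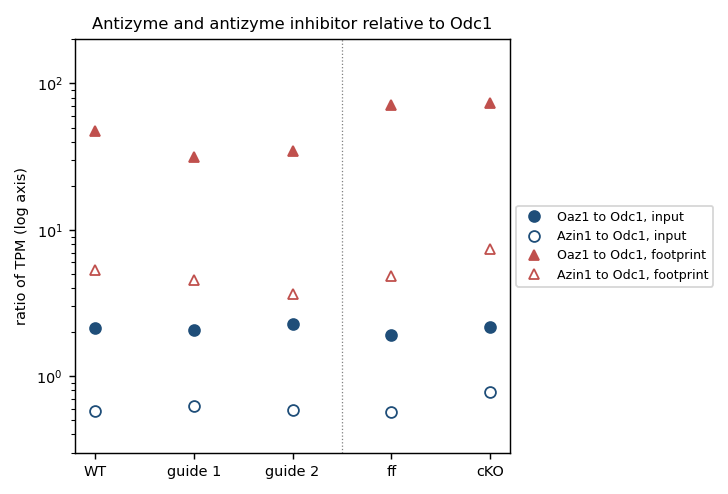
Ratios of TPM to Odc1 on a log axis for Oaz1 (filled) and Azin1 (open), in input (circles) and footprints (triangles), 1 library per point. The input ratio of Oaz1 stays between 1.90 and 2.29, and its footprint ratio lies between 31.3 and 73.4.

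Srm, spermidine synthase, had fewer footprints than input in every condition, and the gap was narrowest in cKO. Its mRNA stood at 415.6 TPM in WT, 340.0 TPM under guide 1, 414.9 TPM under guide 2, 388.7 TPM in ff and 296.9 TPM in cKO. Its footprints were 149.3 TPM in WT, 109.9 TPM under guide 1, 235.8 TPM under guide 2, 155.0 TPM in ff and 234.7 TPM in cKO. Input was lowest in cKO while footprints there were close to the highest value, that of guide 2. Translation efficiency differed by -0.15 for guide 1, 0.66 for guide 2 and 0.98 for cKO.

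Sms, spermine synthase, had the narrowest range of the 9 genes in footprints and in translation efficiency, but not in input. Its footprints were 41.3 TPM in WT, 32.8 TPM under guide 1, 50.4 TPM under guide 2, 45.7 TPM in ff and 42.2 TPM in cKO. In input it reached 88.2 TPM in WT, 84.9 TPM under guide 1, 85.5 TPM under guide 2, 94.1 TPM in ff and 66.7 TPM in cKO. The lowest ratios to the control were those of the cKO input, at 70.9%, and of the guide 1 footprints, at 79.3%. Translation efficiency differed by -0.27 for guide 1, 0.32 for guide 2 and 0.38 for cKO.

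Sat1, the spermidine/spermine acetyltransferase that starts polyamine breakdown and export, had footprint TPM close to its input TPM in WT and under both guides. Footprints per input were 0.74 in ff and 1.455 in cKO. Its mRNA stood at 279.3 TPM in WT, 176.0 TPM under guide 1, 281.1 TPM under guide 2, 287.7 TPM in ff and 184.9 TPM in cKO. Its footprints were 271.2 TPM in WT, 166.1 TPM under guide 1, 317.7 TPM under guide 2, 212.9 TPM in ff and 269.1 TPM in cKO. Under guide 1 both measures were lower than in WT, whereas in cKO input was lower and footprints were higher than in ff. The input differences of -0.66 under guide 1 and -0.63 in cKO stood at the 0.40th and 0.83rd percentile of tested genes. Fewer cells with the transcript and less transcript per cell cannot be told apart in such bulk libraries. Translation efficiency differed by -0.04 for guide 1, 0.22 for guide 2 and 0.97 for cKO.

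Smox, spermine oxidase, was scarce and was tested in neither table. In input it reached 2.30 TPM in WT, 3.03 TPM under guide 1, 2.56 TPM under guide 2, 2.02 TPM in ff and 4.96 TPM in cKO. Its footprints were 4.76 TPM in WT, 1.61 TPM under guide 1, 0.754 TPM under guide 2, 4.11 TPM in ff and 0.209 TPM in cKO. Both control libraries had more footprint TPM than input TPM, and the 3 targeted libraries had less. Translation efficiency differed by -1.43 for guide 1, -1.82 for guide 2 and -3.06 for cKO, from low levels whose counting error cannot be computed from TPM.

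In input RNA, none of the 9 genes was 2-fold or more from WT with each guide, where 0.0398% of all tested genes were. In cKO none was past this limit, where 1.59% were, but Smox lay just inside it at 0.98, and past it, at 1.11, with a pseudocount of 0.5 TPM. Its TPM ratio was 2.45. Under guide 2 all 9 input changes lay between -0.06 and 0.11. For guide 1 and cKO, the libraries with lower Wdr4 input, Sat1 was at -0.66 and -0.63, Amd1 at -0.30 and -0.38, Srm at -0.29 and -0.39, Oaz2 at 0.36 and 0.37, and Azin1 at 0.19 and 0.33. Sms was at -0.05 and -0.49, Smox at 0.29 and 0.98, Oaz1 at 0.02 and 0.06, and Odc1 at 0.07 and -0.12.

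In footprints, Smox alone lay 2-fold or more from WT, to the same side, with each guide, as 2.18% of tested genes did; Smox itself was below the minimum for testing. Amd1 (1.15) and Smox (-2.08) were at least 2-fold apart in cKO, against 10.9% of tested genes. With a pseudocount of 5 TPM the Smox footprint changes were within 2-fold, at -0.56, -0.76 and -0.81. Amd1 was also at 1.08 under guide 2. Over the 8 members that were tested the median footprint change was -0.38 under guide 1, 0.40 under guide 2 and 0.49 in cKO. For all tested genes it was 0.09, -0.03 and -0.20. Guide 1 and guide 2 share the WT library.

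For translation efficiency, no gene of the 9 was at least 2-fold higher under both guides, where 0.902% of all tested genes were. Smox was lower under both, where 2.04% were. Smox was below the minimum for testing, so no share given here is over genes of its level. Without the filter, 602 of 12581 genes were past 2-fold the same way under both guides, against 222 of 7536 with it. Under guide 1 alone Oaz2 and Smox were at least 2-fold lower (13.7% of tested genes), and none of the 9 was higher (14.8%). Under guide 2 alone Amd1 was at least 2-fold higher (3.53%) and Smox lower (4.87%). In cKO Amd1 was at least 2-fold higher (4.03%) and Smox lower (16.0%). Srm at 0.98 and Sat1 at 0.97 lay just inside the 2-fold limit in cKO. The median tested gene was at -0.25 there, and relative to it Amd1 was at 1.78, Srm at 1.24 and Sat1 at 1.22. Over all tested genes 286 were at least 2-fold higher and 1135 lower in cKO, and 596 and 641 once libraries were rescaled to one median. In cKO 8 of the 8 tested genes of the pathway were above 0, as were 35.1% of all tested genes. Under guide 2 it was 7 of 8 against 46.5%, and under guide 1 it was 1 of 8 against 50.5%. Smox, which was not tested, was below 0 in each comparison.

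Limma's empirical Bayes test took its spread from the differences between guides, shared over genes. A printed SE is therefore not that gene's own difference between guides. The guide 1 footprint library, which stood apart, enters the spread for footprints and translation efficiency. The test compared both guide lines with WT over all genes. It called none of the 8 tested genes for input, footprints or translation efficiency, and none had an unadjusted p under 0.05. Over all tested genes it called 0.0663% for translation efficiency, 0.0133% for footprints and 0% for input, where limma gave 55 genes an unadjusted p under 0.05. For Odc1 the mean change in translation efficiency was 0.57 (SE 1.49, adjusted p = 0.9999), higher under both guides. For Oaz2 it was -0.87 (SE 0.95, adjusted p = 0.9999), lower under both guides. For Amd1, where the guides went opposite ways, it was 0.42 (SE 1.36, adjusted p = 0.9999). With limma's trend over mean values left out, the SE for translation efficiency was 0.81 for Odc1, Oaz2 and Amd1 alike. With 1 residual degree of freedom, a gene that was not called is not shown to be unchanged. The TAM table allows no test.

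**Figure D4:**
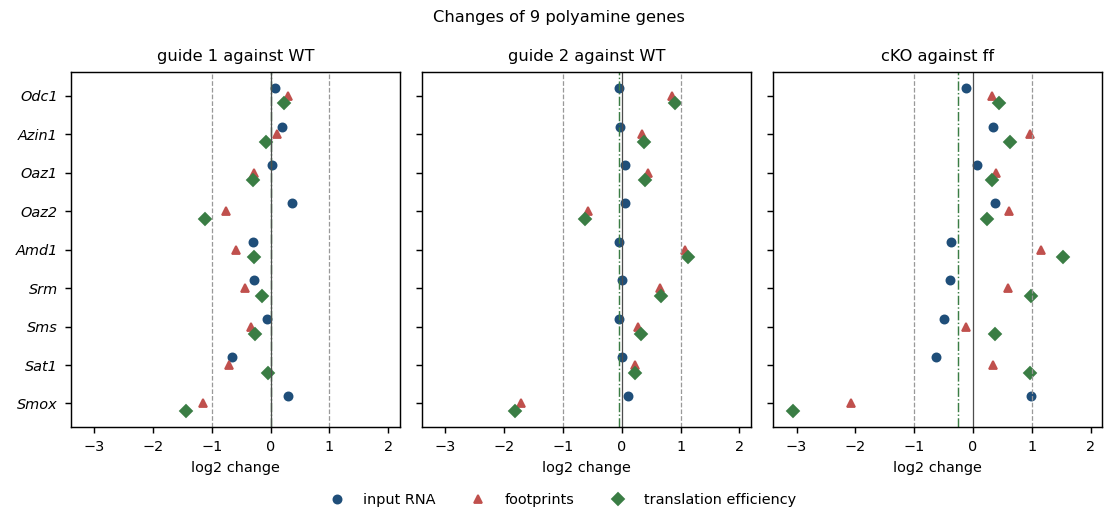
log2 change of input RNA (circles), footprints (triangles) and translation efficiency (diamonds) for guide 1 and guide 2 against WT and for cKO against ff; dashed lines mark 2-fold and the dash-dot line the median change in translation efficiency of all tested genes. Amd1 lies at 1.13 under guide 2 and 1.53 in cKO but at -0.29 under guide 1, and Smox lies lowest in footprints and translation efficiency in each panel.

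The wider pathway was taken from a list of 36 genes, of which 20 passed the 5 TPM minimum in each table. Another 9, among them the arginases Arg1 and Arg2 and the testis antizyme Oaz3, had input below 1 TPM throughout. Of the 20, 1 was at least 2-fold higher in translation efficiency under both guides and 0 lower, beside 0.902% and 2.04% of all tested genes. In cKO 1 was higher and 4 were lower, beside 4.03% and 16.0% of all tested genes. Under guide 1 alone 5 were higher and 1 lower, beside 14.8% and 13.7%. Under guide 2 alone 2 were higher and 1 lower, beside 3.53% and 4.87%.

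The methionine salvage genes return the methylthioadenosine released by spermidine and spermine synthesis to methionine. Mri1, the methylthioribose-1-phosphate isomerase, was the gene higher in each comparison, with footprints of 7.69 TPM in WT, 17.6 TPM under guide 1, 19.0 TPM under guide 2, 6.53 TPM in ff and 19.1 TPM in cKO. All 3 targeted libraries lay above both control libraries. Its translation efficiency differed by 1.56, 1.32 and 1.87, while its mRNA stood at 12.8 TPM in WT, 9.0 TPM under guide 1, 11.7 TPM under guide 2, 10.4 TPM in ff and 7.38 TPM in cKO. Mtap, the phosphorylase that cleaves methylthioadenosine, was at 0.45, 0.56 and 0.89. Of the 7 genes for methionine and its salvage, 7 were above 0 under guide 1, 6 under guide 2 and 5 in cKO, beside 50.5%, 46.5% and 35.1% of all tested genes. Their medians were 0.46, 0.22 and 0.79, beside 0.01, -0.05 and -0.25.

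The 4 genes at least 2-fold lower in cKO were Slc3a2, Slc7a1, Pycr1 and Aldh18a1. Slc3a2, the heavy chain of amino acid exchangers, which has also been linked to polyamine transport, had footprints of 1330 TPM in WT, 992.2 TPM under guide 1, 555.5 TPM under guide 2, 1562 TPM in ff and 805.6 TPM in cKO. Each targeted library was below its control. Its translation efficiency differed by -0.85, -1.22 and -1.68. Slc7a1, a cationic amino acid transporter, was at 0.07, -0.43 and -1.45. Pycr1 and Aldh18a1, of proline synthesis, were at -2.23 and -1.28 in cKO, and at -0.98 and -0.94 under guide 2. Under guide 1 they were at -0.92 and 1.30, and Pycr1 input in WT was 8.44 TPM. The other tested genes of arginine, ornithine and proline metabolism were within 2-fold in cKO, with Ass1 at -0.79, Oat at -0.35 and Asl at 0.67. Under guide 1 all were at least 2-fold higher, as were 14.8% of all tested genes, with Ass1 at 1.16, Oat at 1.20 and Asl at 1.38. Under guide 2 Ass1 was at 0.06, Oat at -0.33 and Asl at -0.07.

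Hypusine, a modified lysine built from spermidine, occurs on the translation factor Eif5a. Eif5a footprints were 2153 TPM in WT, 2101 TPM under guide 1, 3730 TPM under guide 2, 2377 TPM in ff and 3245 TPM in cKO. Guide 2 and cKO were again the high libraries. Its translation efficiency differed by 0.11, 0.73 and 0.85. The enzymes that make hypusine differed in direction, with Dhps at -0.77, -0.05 and -0.40 and Dohh at 0.82, 0.28 and 0.64. Myc, a transcription factor that drives Odc1, was at 0.46, 0.38 and 0.05.

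**Figure D5:**
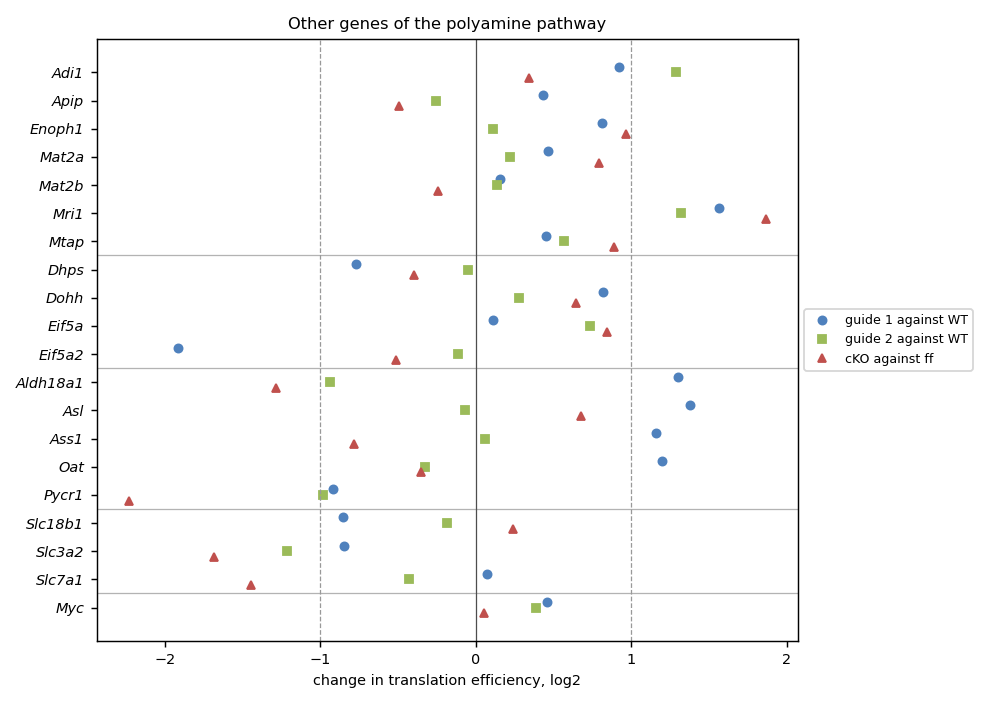
Change in translation efficiency (log2) of the 20 other pathway genes that passed 5 TPM, for guide 1 (circles), guide 2 (squares) and cKO (triangles) against their controls, grouped from top to bottom as methionine and its salvage, hypusine, arginine with ornithine and proline, transport, and Myc. Mri1 lies past the dashed 2-fold line in all 3 comparisons (1.56, 1.32 and 1.87), and Pycr1 (-2.23) and Slc3a2 (-1.68) are the lowest in cKO.

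Likeness of pattern was measured as the Euclidean distance over the 3 changes in translation efficiency, among 3409 genes with at least 20 TPM on average in input and footprints of both tables. Nearest to Odc1 were Med22 (distance 0.16) and Pmf1 (0.18). Nearest to Oaz1 were Cmpk1 (0.07), Slc25a32 (0.08) and Naa20 (0.08), and Sms followed at rank 5 (0.09). Odc1 and Oaz1 were 0.75 apart, Oaz1 taking rank 386 among the genes nearest to Odc1.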

How the data were processed

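The authors deposited 2 tables of TPM, 6 libraries for iBMDM and 4 for TAM, normalised separately. Per the submitters' processing notes, fastp 0.18.0 and Bowtie2 were among the tools; build, annotation and quantifier are not given in the sources at hand. No counting interval is given, because depth cannot be read from TPM. Of 21956 rows per table, 42 shared a symbol with another row, and the row with the highest mean was kept. Values were analysed as log2(TPM + 1), which understates changes of low genes. Genes with mean input and footprints of at least 5 TPM in a table were tested, 7536 for iBMDM and 7101 for TAM. Limma 3.58.1 in R 4.3.3 (two-sided, Benjamini-Hochberg threshold of 0.05) compared both guide lines with WT. Its variance trend ran over the mean of the values tested, which for translation efficiency is mean translation efficiency and not expression. Limma assumes that the lone WT line varies like the guides. No label says whether the guide lines were grown or sequenced apart, so p-values measure only the spread between these samples, which may be technical. Elsewhere a 2-fold size rule (1 on the log2 scale) was used. The members, the pathway list and the markers were chosen with earlier results of these data known. All members are named; of the pathway list, genes at least 2-fold apart in translation efficiency under both guides or in cKO were to be named, and others were picked by role after their values were seen. The 3 genes nearest to Odc1 and Oaz1 were named by distance, leaving out gene models, pseudogenes and histones; 1 of them is not reported here. Alternatives were other pseudocounts, filters, scalings and limma settings. Sequence came from RefSeq. Tables were handled in pandas 2.3.3 and numpy 2.4.6 and drawn in matplotlib 3.10.9, under Python 3.11.15.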

Additional observations from a re-analysis of the deposited data

Results flagged for a closer look

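Oaz2 differed in direction between the iBMDM and TAM tables. Its translation efficiency was lower under both guides, at -1.12 under guide 1 and -0.63 under guide 2, and higher in cKO, at 0.24. Its footprints were at -0.76 and -0.57 under the guides and at 0.61 in cKO. The difference between the tables was not tested, since ff and cKO have 1 library of each kind. Both guide values rest on the WT footprint library, in which Oaz2 was at 31.2 TPM, against 14.1 TPM in ff.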

How the results depend on the processing

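The changes of the 9 genes were recomputed with pseudocounts of 0.5 and 5 TPM and with rows of a symbol summed. They were also recomputed after rescaling to the same median and after rescaling without mitochondrial, ribosomal protein and histone genes. Of 405 recomputed changes, 390 stayed on the same side of the 2-fold limit, 8 passed it, 7 fell below it and none past it turned sign. Summing rows gave 81 of the 390 and left every value of the 9 genes as it was. The count in cKO, 1 of the 8 tested genes (Amd1), became 3 with both rescalings, which added Srm (1.28 and 1.15) and Sat1 (1.26 and 1.13), and 2 without the filter, which added Smox. The count under both guides, 0, became 1 without the filter (Smox). With a guide left out only the remaining guide is counted, which can only keep or raise the count. It was then 1 each time, Amd1 (higher) under guide 2 and Oaz2 (lower) under guide 1. With a pseudocount of 5 TPM, Smox translation efficiency was at -0.70 under guide 1 and -0.81 under guide 2, its footprints were at -0.56, -0.76 and -0.81 (cKO), Oaz2 at -0.99 under guide 1, and Amd1 footprints at 0.96 under guide 2. Odc1 reached 1.00 under guide 2 with rescaling to the same median, Smox input in cKO 1.11 with a pseudocount of 0.5 TPM, and Azin1 footprints in cKO 1.17 and 1.08 with the rescalings. Limma called none of the 8 tested genes under any setting, including the interaction term in which lines are not paired. Smox entered limma only without the filter, where its unadjusted p was 0.047 for footprints (adjusted p = 0.995) and 0.020 for translation efficiency (adjusted p = 0.99996). With a guide left out, limma has no residual degrees of freedom and was not run. Over all tested genes, 222 past 2-fold under both guides became 117 with a pseudocount of 5 TPM, 602 without the filter and 69 with a filter of 20 TPM. In cKO, 286 higher and 1135 lower genes became 596 and 641 once rescaled to one median, 477 and 1018 without the 3 gene classes, 182 and 728 with a pseudocount of 5 TPM, 503 and 2180 without the filter, and 125 and 399 with a filter of 20 TPM. Limma's calls over all genes, 5 for translation efficiency, 1 for footprints and 0 for input, ranged over the settings from 0 to 6, from 0 to 4 and from 0 to 4. The causes were not tested. Depth is unknown, and for Odc1 and Amd1 reads shared with gene copies could not be resolved.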
